A study of Schizosaccharomyces pombe with 8 samples.

Results

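The 54 genes described here carry the names given in fission yeast to proteins of the mitochondrial ribosome. They were taken as the nuclear gene entries of chromosomes I, II and III whose name is mrpl, mrps, mrp or rsm followed by a digit, which gave 54 of 5118 protein-coding gene entries and 54 of the 9111 features kept in all. The reference annotation calls 53 of them mitochondrial ribosomal proteins, 32 of the large and 21 of the small subunit. The exception was rsm1, which is annotated as a zinc finger RNA export factor and shares only the letters of the name. It is kept in the counts and is named where it matters.

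Mitochondrial ribosomes translate the few messenger RNAs that the mitochondrial genome still encodes, most of them for subunits of the respiratory chain and of the ATP synthase. Their ribosomal RNAs are made inside the organelle, whereas nearly all of their proteins are encoded in the nucleus, translated in the cytosol and imported. RNA polymerase II therefore transcribes these genes alongside those of the cytosolic ribosome, whose promoters in fission yeast commonly hold the HomolD and HomolE boxes.

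NET-seq, which sequences RNA held by RNA polymerase II, was carried out on Schizosaccharomyces pombe cells that carry a Flag tag on the polymerase subunit Rpb3. The cells were grown exponentially either with 20 µg/ml trichostatin A (TSA), an inhibitor of class I and II histone deacetylases, for 2.5 h, or without it. Both groups carried the tag, and each lysate received a Saccharomyces cerevisiae Rpb3-Flag lysate as spike-in at a ratio of 50 to 1. Each group had 2 biological replicates, and each replicate gave an immunoprecipitated (IP, nascent RNA) and an input library, 8 libraries in all. The comparison asks how inhibition of these deacetylases changes nascent transcription.

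The libraries held 7218671 to 12591213 reads over the kept features. The 54 genes together took 0.106% to 0.155% of the reads of an IP library and 0.0191% to 0.0213% of those of an input library. The median gene of the group had 149.5 to 255 reads per IP library and 29 to 40.5 reads per input library, with a lowest value of 33 reads in an IP and 3 reads in an input library. Transfer RNA genes took 14.5% and 9.34% of the TSA IP reads and 6.01% and 9.38% of the untreated IP reads, a share whose part in the results was not tested. Values on the spike-in scale are reads multiplied by a factor per library that the authors set from S. cerevisiae ribosomal protein genes, and values on the total-read scale are levelled on all mapped reads.

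Promoter windows of 6 genes are shown first, because they are the part of the sequence that the cytosolic and mitochondrial ribosomal protein genes could share. Each runs from 250 bases before to 50 bases after the annotated RefSeq transcript start of assembly ASM294v3 and is printed 5′ to 3′ on the gene's own strand. Capitals mark HomolD (CAGTCACA), the HomolE box, CCAAT and TATAAA on either strand. The genes mrps17 (chrII:1167248-1167547, minus strand) and mrpl1601 (chrII:3509084-3509383, minus strand) had the lowest nascent RNA changes of the group, and mrps18 (chrI:4967813-4968112, minus strand) had the highest. In the deposited annotation the mrps18 entry runs from 4966990 to 4968398 and its coding part from 4967223 to 4967894. The mrps18 window thus lies wholly inside that entry and overlaps its coding part. The gene mrp51 (chrI:4113609-4113908, minus strand) held the one HomolE box of the group. The last pair are cytosolic counterparts of the first, rps1102 (chrI:4674338-4674637, plus strand) of the uS17 family and rpl1001 (chrII:2081231-2081530, plus strand), which encodes the L10 protein of the uL16 family.
mrps17: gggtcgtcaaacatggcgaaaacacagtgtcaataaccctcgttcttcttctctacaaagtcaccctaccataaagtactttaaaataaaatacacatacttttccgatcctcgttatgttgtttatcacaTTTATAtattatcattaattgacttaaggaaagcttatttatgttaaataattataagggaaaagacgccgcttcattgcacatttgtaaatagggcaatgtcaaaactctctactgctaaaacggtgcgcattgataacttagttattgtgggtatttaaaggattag
mrpl1601: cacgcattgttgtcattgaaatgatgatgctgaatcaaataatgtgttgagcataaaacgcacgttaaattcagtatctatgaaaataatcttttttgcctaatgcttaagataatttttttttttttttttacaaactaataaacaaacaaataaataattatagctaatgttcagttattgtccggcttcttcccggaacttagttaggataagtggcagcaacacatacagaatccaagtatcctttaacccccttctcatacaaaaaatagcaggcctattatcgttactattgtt
mrps18: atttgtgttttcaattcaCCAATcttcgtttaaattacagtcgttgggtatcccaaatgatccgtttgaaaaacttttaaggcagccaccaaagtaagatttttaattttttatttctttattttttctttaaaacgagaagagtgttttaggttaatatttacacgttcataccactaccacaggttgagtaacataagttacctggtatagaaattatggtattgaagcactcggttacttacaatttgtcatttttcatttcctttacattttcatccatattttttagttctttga
mrp51: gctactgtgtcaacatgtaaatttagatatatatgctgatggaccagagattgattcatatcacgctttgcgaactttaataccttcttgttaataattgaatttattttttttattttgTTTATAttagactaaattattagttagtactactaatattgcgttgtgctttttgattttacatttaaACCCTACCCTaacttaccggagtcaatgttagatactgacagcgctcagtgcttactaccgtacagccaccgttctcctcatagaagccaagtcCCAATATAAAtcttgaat
rps1102: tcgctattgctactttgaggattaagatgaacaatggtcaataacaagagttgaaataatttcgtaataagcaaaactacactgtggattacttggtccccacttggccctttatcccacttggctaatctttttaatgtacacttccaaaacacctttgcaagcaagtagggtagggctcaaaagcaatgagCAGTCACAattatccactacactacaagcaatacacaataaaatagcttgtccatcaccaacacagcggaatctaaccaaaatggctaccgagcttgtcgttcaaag
rpl1001: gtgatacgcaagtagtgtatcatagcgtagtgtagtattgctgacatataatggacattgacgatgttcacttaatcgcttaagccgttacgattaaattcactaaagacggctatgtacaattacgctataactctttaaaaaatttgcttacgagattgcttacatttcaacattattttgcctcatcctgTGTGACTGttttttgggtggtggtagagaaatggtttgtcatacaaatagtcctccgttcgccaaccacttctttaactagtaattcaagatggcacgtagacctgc

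No HomolD box stood in any of the 54 promoter windows, against 89 of 143 windows of cytosolic ribosomal protein genes (62.2%) and 137 of all 5144 windows (2.66%). In rps1102 and rpl1001 the box began 57 bases before the start. HomolE was present in 1 of the 54 windows, 62 bases before the start of mrp51, against 41 of 143 cytosolic ones (28.7%) and 1.24% of all. TATAAA stood in 27 of the 54 windows (50.0%, against 48.1% of all), CCAAT in 19 (35.2%, against 42.3%) and AAAATTTT in 7 (12.96%, against 7.80%). ATGACGT, the site of stress-response factors of the ATF family, was in none of the 54 and in 1.56% of all. These are counts of letters in a fixed window, searched on both strands.

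The proteins themselves were short and basic at their start, and so were cytosolic ribosomal proteins. The median net charge of the first 30 residues was 4 in both sets, against 0 for all proteins. Sequences addressed to mitochondria are commonly basic at their start, but a basic start is thus not particular to this group. The 53 annotated mitochondrial ribosomal proteins had a median of 166 residues (55 to 476), against 149 residues for cytosolic ribosomal proteins and 378 for all proteins. Within the first 30 residues, lysines and arginines exceeded aspartates and glutamates by 3 or more in 46 of the 53 (86.8%), in 63.6% of the cytosolic ribosomal proteins and in 25.9% of all proteins. In rsm1 this net charge was -6, apart from all of the others, in none of which it was 0 or below. The genes lay on chromosome I (20), II (22) and III (12), with a median length of 1135 nt against 1888 nt for all protein-coding genes, and 30 of them had a single coding part.

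In nascent RNA, TSA left the group slightly lower and close to the rest of the genome. On the spike-in scale, 53 of the 54 genes had a negative log2 change, and the median was -0.48 (1.39-fold lower) and a range of -1.19 to 0.02. All 8052 features tested had a median of -0.42 and the 5003 protein-coding genes among them -0.49. A gene was called where limma gave an adjusted p below 0.05 together with a shift of 2-fold or more, and this held for 2 genes that were lower and 0 that were higher. That is 3.70% of the group called lower where 6.31% of all features were, and 0% called higher where 2.10% of all features were. The counts of the group were thus near or below the background.

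**Figure D1:**
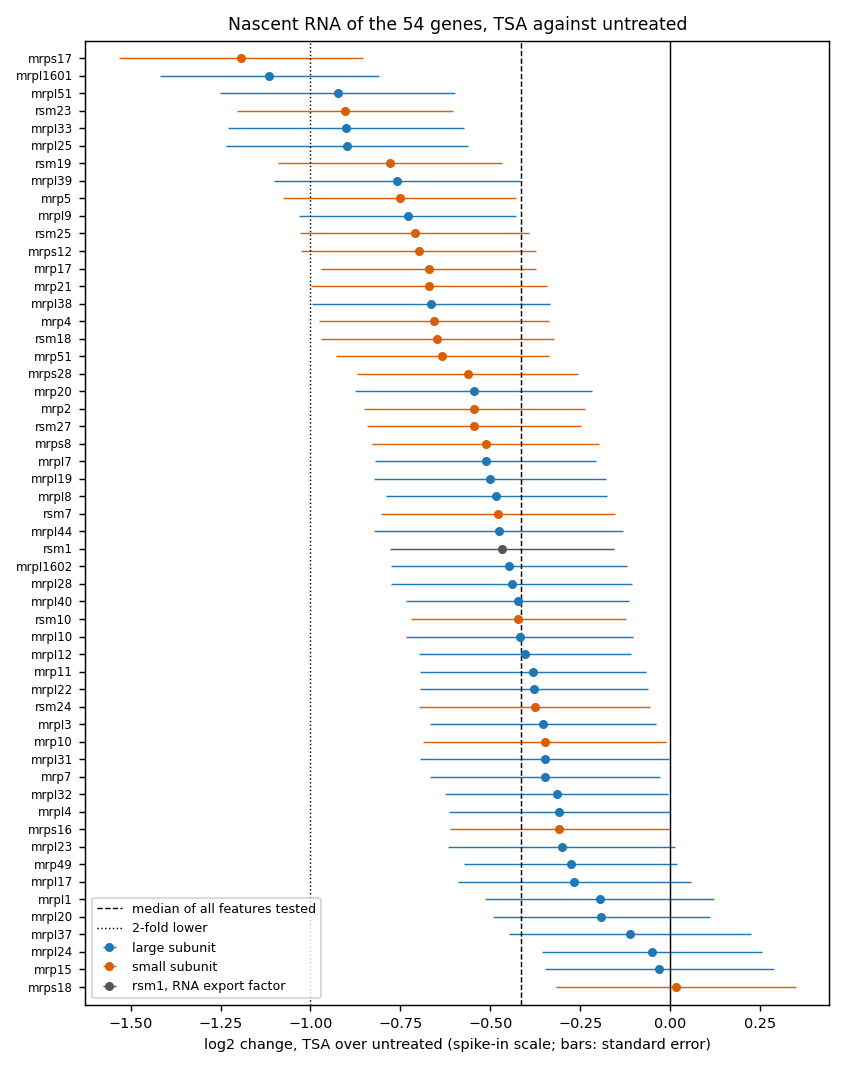
Log2 change of nascent RNA, TSA over untreated, on the spike-in scale for each of the 54 genes (n = 2 IP libraries per group; bars are standard errors of the limma fit; colour gives the subunit). The values run evenly between -1.19 and 0.02 around the dashed median of all features at -0.42, with mrps17 and mrpl1601 beyond the dotted line of 2-fold.

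The called genes both encode proteins of families shared with bacterial and cytosolic ribosomes. The gene mrps17 (SPBC409.14c, chromosome II, 1166520 to 1167359, minus strand) encodes uS17m, a small-subunit protein whose bacterial relative binds ribosomal RNA directly. It had 34.2 and 38.0 spike-in scaled reads in the TSA IP libraries, against 106 and 76.6 in the untreated IP libraries, so that the groups did not overlap. Its log2 change was -1.19 ± 0.34 (SE, n = 2 each; limma adjusted p = 0.00825), or 2.29-fold lower with TSA. The gene mrpl1601 (SPBC1105.03c, chromosome II, 3507523 to 3509173, minus strand, now named mrpl16) encodes uL16m, a large-subunit protein whose bacterial relative lies close to the tRNA-binding sites. It had 136.9 and 136.6 spike-in scaled reads in the TSA IP libraries, against 329 and 279 in the untreated ones, with no overlap. Its log2 change was -1.11 ± 0.31 (SE, n = 2 each; limma adjusted p = 0.00621), or 2.16-fold lower.

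Another 4 genes passed the adjusted p without reaching 2-fold, which makes 6 of 54 lower and 0 higher by p alone (11.1%, where 13.6% of all features were lower). These were mrpl51 (mL43), rsm23 (mS29, the relative of human DAP3), mrpl33 (uL30m) and mrpl25 (mL59), with log2 changes of -0.92, -0.90, -0.90 and -0.90 and adjusted p values of 0.0371, 0.0261, 0.0423 and 0.0484. The gene rsm23 had 180 and 192 spike-in scaled reads in the TSA IP libraries, against 427 and 292 in the untreated IP libraries. For mrpl33 they were 61.3 and 65.5 in TSA IP, against 153 and 99.6 in untreated IP, and for mrpl25 43.6 and 47.7 in TSA IP, against 103 and 78.8 in untreated IP. With no filter on low values mrpl33 and mrpl25 did not pass (adjusted p = 0.0539 and 0.0635), nor did mrpl25 with a smaller pseudocount (0.0508) or mrpl51 by DESeq2 (0.0693). In mrpl51 the groups overlapped, with 88.9 and 48.5 scaled reads in TSA IP and 193 and 87.5 in untreated IP. Across the group, both TSA IP libraries lay below both untreated IP libraries in 43 of the 54 genes (79.6%), which held for 58.0% of all features and 71.2% of protein-coding genes.

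At the other end stood genes with log2 changes near 0 on the spike-in scale, none of which passed the test. The gene mrps18, annotated as a putative subunit S18, had 76.7 and 74.4 spike-in scaled reads in TSA IP, against 79.0 and 70.6 in untreated IP, a log2 change of 0.02 ± 0.33 (SE). For mrp15, which encodes mL57, the values were 134 and 120 in TSA IP, against 148 and 113 in untreated IP, a log2 change of -0.03 ± 0.32. For mrpl24, which encodes bL28m, they were 201 and 195 in TSA IP, against 224 and 189 in untreated IP, a log2 change of -0.05 ± 0.31. In these genes the groups overlapped, as they did in mrpl37 (mL54, -0.11 ± 0.34) and mrpl20 (mL58, -0.19 ± 0.30). Relative to the median of all features, 51 of the 54 genes (94.4%) lay within 0.5 on the log2 scale, against 83.4% of protein-coding genes, and the SD over the genes was 0.26, against 0.45. The only genes farther out were mrps17, mrpl1601 and mrpl51. On the total-read scale mrps18, mrp15 and mrpl24 had 0.46, 0.43 and 0.42, and in summed coding parts on the spike-in scale mrps18 had -0.27 and mrpl20 -0.54, again without passing.

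**Figure D2:**
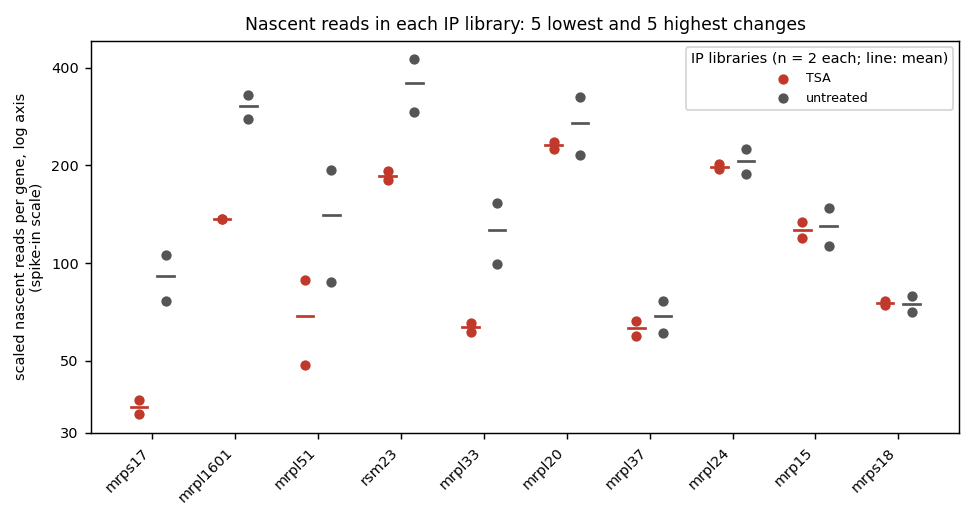
Spike-in scaled nascent reads (log axis) of the 5 genes with the lowest and the 5 with the highest log2 change in each IP library, TSA left of untreated (points are libraries, lines means, n = 2 each). The untreated points of mrps17, mrpl1601, rsm23 and mrpl33 all lie above the TSA points, and those of mrpl51 and of the 5 genes on the right overlap with them.

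The subunits differed somewhat in their medians. On the spike-in scale the median log2 change was -0.63 for the 21 small-subunit genes, 0.22 below the median of all features, and -0.41 for the 32 large-subunit genes, at that median. Each subunit had 1 called gene. Grouped by the family that the protein name gives, the 24 universal proteins had a median of -0.51, the 10 shared only with bacteria -0.56 and the 16 particular to mitochondria -0.36. These medians are descriptions over genes of the same 4 libraries and were not tested against each other.

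The size of the shift rested on the scale and on the untreated libraries. On the total-read scale, which levels the libraries, the median of all 8062 features was 0.03, a shift of 0.44 from the spike-in scale, and the median of the 54 genes was -0.02, so that relative to all features the group was 0.06 lower on the first scale and 0.04 lower on the second. On this scale 0 of the 54 were called lower and 0 higher by the 2-fold rule (0.843% and 4.45% of all features), and at an unadjusted p under 0.05 the group had 2 genes lower (3.70%, against 6.08% of protein-coding genes) and 0 higher (against 8.32%). By p alone, mrps17 was lower (log2 change -0.76, limma adjusted p = 0.0331; 2.77% of all features were lower), while mrpl1601 had -0.65 and adjusted p = 0.0886. Both TSA libraries lay below both untreated ones in 9 of the 54 (22.7% of all features) and above them in 6 (24.8%). The median gene of the group had 114 and 121 spike-in scaled reads in the TSA IP libraries, against 184 and 139 in the untreated ones. Thus the untreated pair differed by 0.40 on the log2 scale and the TSA pair by 0.09. Without untreated replicate 1 the median change was -0.31, against -0.24 over all features. Without untreated replicate 2 it was -0.65, against -0.60 over all features. The count of genes called lower moved in the same direction in the group and over all features.

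Leaving out either TSA replicate ended both calls, as it did most calls over all features, while the log2 changes of the 2 genes moved little. Without TSA replicate 1 the log2 change was -1.13 for mrps17 and -1.12 for mrpl1601, and without TSA replicate 2 it was -1.26 and -1.11. In these fits a lone library is assumed to vary like the others. Of 509 features at least 2-fold lower on the spike-in scale, 508 also had an adjusted p under 0.05, because limma drew all gene variances to a common trend, so the p adds little to the fold. An exact permutation test of 2 against 2 libraries cannot go below p = 0.333.

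The coding parts of the genes were fitted separately. Of the 89 coding parts of the 54 genes, 83 were tested, and their median log2 change in spike-in scaled reads was -0.47, against -0.46 over all 9162 coding parts. Of these, 3 parts (3.61%) were called lower, where 7.45% of all coding parts were, and 0 higher, where 0.851% were. They were the single part of mrps17 (-1.45 ± 0.34), the single part of mrpl1601 (-1.11 ± 0.35) and the first of 3 parts of rsm19, which encodes uS19m (-1.17 ± 0.34). That first part of rsm19 had 18.8 and 19.4 scaled reads in TSA IP, against 47.0 and 54.7 in untreated IP, whereas its second part had 13.2 and 16.97 in TSA IP, against 21 and 16.96 in untreated IP. With the coding parts of each gene added up, the log2 change of 50 of the 54 genes stayed within 0.3 of that of the gene entry. The genes mrps17 and mrpl1601 were again called (-1.48 and -1.12, adjusted p = 0.00265 and 0.0268), whereas the 4 that had passed by p alone did not pass, with mrpl51 at -0.50 (0.332), rsm23 at -0.85 (0.0805), mrpl33 at -0.91 (0.0806) and mrpl25 at -0.69 (0.182). In 18 genes with several parts, the first part had the lower log2 change in 8.

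The untreated nascent RNA densities put the group in the middle of the genome. On the spike-in scale the median density was 94.8 scaled reads per kb with TSA and 137 untreated, where all protein-coding genes had an untreated median of 133 per kb. In untreated cells 48 of the 54 genes lay between the quartiles of all protein-coding genes (72.6 and 265 per kb), 2 above and 4 below. Cytosolic ribosomal protein genes had medians of 1012 per kb with TSA and 1735 per kb untreated. The gene mrpl4, which encodes uL29m, was densest, with 305 and 354 per kb in TSA IP, against 427 and 393 in untreated IP. Next came mrp49 (mL61), with 204 and 239 per kb in TSA IP, against 311 and 232 in untreated IP. A non-coding transcript on the same strand, SPNCRNA.503, covers 278 nt of the mrp49 entry. It had 106 and 130 scaled reads in TSA IP, against 159 and 132 in untreated IP.

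The gene mrpl12 (bL12m, of the stalk that meets the translation factors) had 177 and 203 per kb in TSA IP, against 263 and 242 in untreated IP, and mrp51 (bS1m) had 153 and 168 per kb in TSA IP, against 249 and 252 in untreated IP. In untreated cells the libraries of mrp49, mrpl12 and mrp51 overlapped one another, so that their order is not resolved, whereas those of mrpl4 lay above all of them. The sparsest genes in untreated IP were mrpl24, mrps18, mrpl31 (mL60) and rsm1, with means of 41.4, 53.1, 65.3 and 70.7 per kb, against 39.8, 53.6, 50.2 and 50.0 per kb in TSA IP. The gene entry of mrpl24 spans 4980 nt, of which 531 nt are coding, and a non-coding unit on the same strand covers 912 nt of it. The order of the genes was similar in TSA, where 8 of the 10 densest genes in untreated cells were again among the 10 densest.

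Input RNA of the group showed no gene called by the 2-fold rule, with 0 lower (1.56% of all 7245 features) and 0 higher (4.53%), and at an unadjusted p under 0.05 it had 7 genes lower (12.96%, against 17.1% of protein-coding genes) and 3 higher (5.56%, against 15.5%). Its median log2 change was -0.06, against 0.00 over all features, with a range of -0.92 to 0.71. By p alone 1 gene was lower (5.38% of all features) and 1 higher (8.01%). The lower one was mrp17, which encodes bS6m of the small subunit, with 24.2 and 23.3 scaled reads in TSA input, against 38.3 and 51.1 in untreated input (log2 change -0.87 ± 0.23, limma adjusted p = 0.0206). The higher one was mrp2, which encodes uS14m, with 43.0 and 44.1 scaled reads in TSA input, against 26.0 and 27.4 in untreated input (0.68 ± 0.22, adjusted p = 0.0456). In both genes the groups did not overlap. Both TSA input libraries lay below both untreated ones in 14 of the 54 genes (25.9%, against 29.1% of all features). They lay above them in 10 genes (18.5%, against 28.7%).

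Other input values near these did not pass. The gene mrps16, annotated as subunit S16, had 34.2 and 37.2 scaled reads in TSA input, against 21.7 and 20.98 in untreated input (0.71 ± 0.23, adjusted p = 0.0543), and mrpl1, whose protein uL1m forms a mobile stalk in bacteria, had 47.1 and 46.7 in TSA input, against 31.8 and 27.4 in untreated input (0.65 ± 0.21, adjusted p = 0.0527). The gene mrpl25 had 15.9 and 7.78 in TSA input, against 21.7 and 22.8 in untreated input (-0.92 ± 0.33, adjusted p = 0.0773), and mrpl7, which encodes uL5m, had 18.9 and 22.5 in TSA input, against 31.8 and 33.8 in untreated input (-0.64 ± 0.24, adjusted p = 0.0914). Without untreated input replicate 1, mrp17 reached 2-fold (-1.07), and without TSA input replicate 1, mrpl25 did (-1.39). Raw reads of these genes were few, from 9 in the TSA input for mrpl25 to 80 for mrpl1.

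Nascent and input changes went together only loosely across the group. On the total-read scale 22 of the 54 genes had a negative log2 change in both and 13 a positive change in both, and Pearson's r over the genes was 0.33, a description over genes that share the same cultures and are not independent. Neither gene called in nascent RNA on the spike-in scale passed the test in input, which is on the total-read scale only. On that shared scale neither was called in nascent RNA by the 2-fold rule, with -0.76 for mrps17 and -0.65 for mrpl1601. In input, mrps17 had 16.5 and 24.2 scaled reads with TSA, against 16.6 and 20.98 untreated (0.09 ± 0.29). The input log2 change of mrpl1601 was -0.53 ± 0.24 (limma adjusted p = 0.163). The difference between the genes was not tested. In bulk RNA a change per cell and a change in the number of transcribing cells cannot be told apart.

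**Figure D3:**
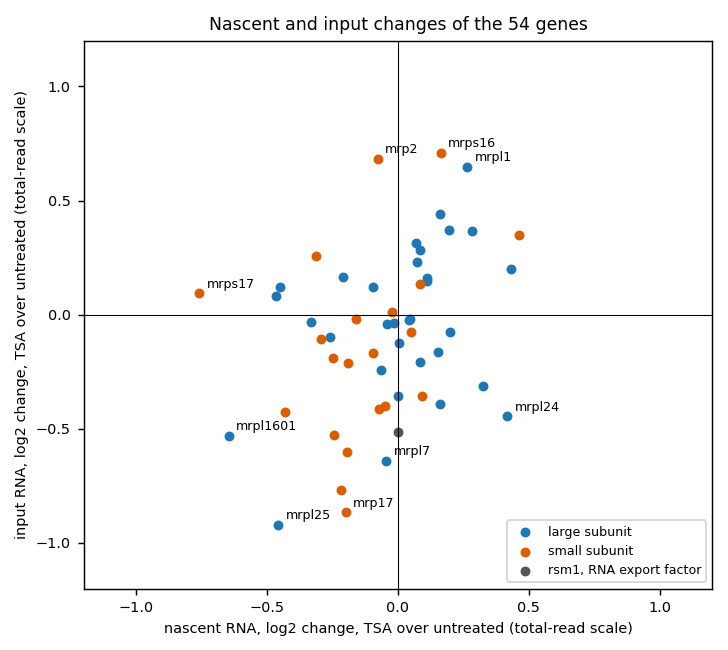
Log2 changes, TSA over untreated, of nascent RNA (x axis) and input RNA (y axis) on the total-read scale for the 54 genes (points are genes, colour gives the subunit, n = 2 libraries per group and axis). The points spread around 0 on both axes, with mrps17 at -0.76 on the nascent axis and 0.09 on the input axis, and mrp17 at -0.87 and mrp2 at 0.68 on the input axis.

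The nascent RNA of a culture was set against its own input as IP over input on the total-read scale. Transfer RNA genes took 64.3% to 67.3% of the reads of an input library. The median protein-coding gene had 255 and 244 scaled reads in TSA IP, against 37.7 and 36.3 in TSA input. In untreated cultures it had 225 and 280 in IP, against 36.1 and 40.1 in input. A ratio well above 1 is thus not particular to the group. The ratio was above 1 for all 54 genes in all 4 cultures, from 1.94 to 31.6. Its medians over the genes were 5.90 and 5.97 in the TSA cultures and 5.86 and 7.09 in the untreated ones. TSA changed this ratio in 0 of the 54 genes in either direction by limma (0% of all 7183 features lower and 0% higher), with 2 genes lower (3.70%, against 4.77% of protein-coding genes) and 1 higher (1.85%, against 3.45%) at an unadjusted p under 0.05, and edgeR on the recovered reads, added after the data were seen, called 0 of the 54 and 20 features in all. Among genes with a mean of 20 or more input reads, the largest differences were in mrpl24, with ratios of 9.66 and 7.54 in TSA cultures, against 4.43 and 4.79 in untreated cultures (log2 change 0.86 ± 0.27, adjusted p = 0.471), and in mrps17, with 2.93 and 1.94 in TSA cultures, against 4.74 and 4.39 in untreated cultures (-0.85 ± 0.27, adjusted p = 0.473). They were followed by mrp2 (-0.76 ± 0.25), mrp17 (0.67 ± 0.31), mrpl7 (0.60 ± 0.28) and rsm19 (-0.57 ± 0.37), none of which passed the test.

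Many of the genes shared their ground with other transcripts. Of the 54, 44 overlapped a feature on the opposite strand, 34 a protein-coding gene there and 18 a non-coding one, and 7 overlapped a protein-coding gene on the same strand. The counts follow the strand: of 1953 pairs in which a feature lay wholly inside one of the opposite strand, the inner feature had more reads in 282, which did not occur in any of 987 such pairs on the same strand. Both called genes had a non-coding transcript opposite to them. The transcript mrps17-antisense-1 covered 534 nt of mrps17 and had 23.2 and 26.7 spike-in scaled reads in TSA IP, against 20.0 and 26.3 in untreated IP (log2 change 0.09 ± 0.35). The transcript XUT1198 covered 742 nt of mrpl1601 and had 19.9 and 17.8 in TSA IP, against 31.0 and 14.2 in untreated IP (-0.14 ± 0.35). The antisense RNA of both thus overlapped between the groups while the sense RNA did not.

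In spike-in scaled reads, the 18 genes with an opposite non-coding transcript had a median log2 change of -0.41 and the 36 without one -0.52. Of the 20 opposite non-coding transcripts, 18 were tested, with a median of -0.01. Of these, 0 were called higher and 2 lower, where 2.10% and 6.31% of all features were. The 2 called lower were XUT1393 and crp79-antisense-1, which both overlap mrpl1 on the opposite strand, by 188 and 31 nt, and had near-equal values. XUT1393 had 76.2 and 98.6 spike-in scaled reads in TSA IP, against 258 and 152 in untreated IP (-1.14 ± 0.32), while mrpl1 itself had 115 and 119 in TSA IP, against 131 and 138 in untreated IP (-0.20 ± 0.32). Leaving out the 7 genes that overlap a gene on the same strand left 2 of 47 called and a median of -0.48. Some overlapping protein-coding genes were called higher. They were mug28 opposite mrp17 (1.16 ± 0.35), SPBC14C8.11c opposite mrpl24 (1.13 ± 0.34) and crp79 on the strand of mrpl1 (1.23 ± 0.33). The gene loc1, opposite rsm19, was called lower (-1.03 ± 0.31).

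Related genes of the same pathway had list medians between -0.66 and -0.36 on the spike-in scale. Beside the called counts of these lists stand 6.31% of all features called lower and 2.10% called higher. Another 22 genes that the annotation calls mitochondrial ribosomal proteins but that carry other names had a median of -0.60, with 1 called lower, tam9, which encodes bL31m (65.7 and 79.2 spike-in scaled reads in TSA IP, against 245 and 133 in untreated IP; log2 change -1.26 ± 0.32, limma adjusted p = 0.00306), and the highest was sws2 (uS13m, 0.04). Of the fixed list of such names 6 of 8 genes were tested and none was called. Its lowest was nam9 (uS4m, -0.92).

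Among 8 mitochondrial translation factors the median was -0.64. The elongation factor G gene mef1 was called lower, with 185 and 184 scaled reads in TSA IP, against 429 and 393 in untreated IP (-1.13 ± 0.30, adjusted p = 0.00442), and the highest was guf1 (0.12), for a GTPase related to elongation factors. Among 11 translational activators and PPR proteins the median was -0.66. The assembly factor gene cbp6 was called lower (-1.07 ± 0.31, adjusted p = 0.0102), and ppr2 was highest (-0.05). Of 6 aminoacyl-tRNA synthetases and 13 genes of mitochondrial transcription, RNA processing and ribosome assembly none was called, with medians of -0.36 and -0.47. These lists ran from mse1 (-0.76) to msf1 (-0.07), which charge glutamate and phenylalanine, and from mrm2 (-0.72), an RNA methyltransferase, to mtg2 (0.04), a GTPase.

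Of 37 nuclear oxidative phosphorylation genes, many of whose products join mitochondrially made subunits in the same complexes, 2 were called lower and 0 higher, with a median of -0.61. They ranged from cox4 (102 and 118 scaled reads in TSA IP, against 276 and 216 in untreated IP; -1.11 ± 0.31, adjusted p = 0.00734) to sdh2 (0.14). Of 143 cytosolic ribosomal protein genes, 16 were called lower and 0 higher, where 6.31% and 2.10% of all features were. Their median was -0.77, which is 0.35 below that of all features, where the 54 mitochondrial ones were 0.06 below. Their values ran from rps2302 (uS12, -1.42) to rpl3402 (0.00). The cytosolic counterparts of the called genes, with promoters printed above, had 510 and 479 scaled reads in TSA IP, against 1048 and 938 in untreated IP for rps1102 (-0.997 ± 0.29, just under 2-fold, adjusted p = 0.0104), and 341 and 377 in TSA IP, against 688 and 619 in untreated IP for rpl1001 (-0.85 ± 0.29, adjusted p = 0.0311).

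The paralogues of these genes had rps1101 at -0.66 ± 0.29 and rpl1002 at -0.69 ± 0.32. Their standard errors overlapped those of rps1102 and rpl1001, and the differences were not tested. Such duplicated cytosolic genes share sequence, and only uniquely mapped reads were kept, so reads from identical stretches are missing from their values; the size of that loss was not tested. In input RNA the cytosolic genes had a median log2 change of -0.28 and the oxidative phosphorylation genes -0.37, against -0.06 for the 54 genes and 0.00 for all features. No list was tested against another.

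**Figure D4:**
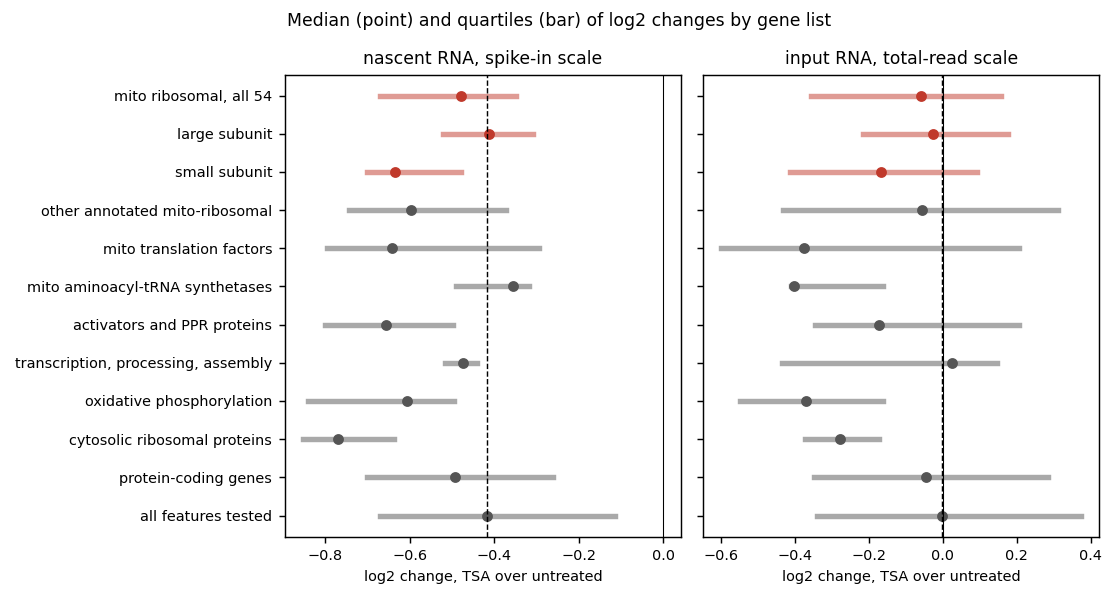
Median (point) and quartiles (bar) of the log2 change, TSA over untreated, by gene list, for nascent RNA on the spike-in scale (left panel) and input RNA on the total-read scale (right panel). The red entries are the 54 genes and their subunits. In nascent RNA the medians of the 54 genes (-0.48) and the large subunit (-0.41) lie near the dashed median of all features at -0.42. The small subunit at -0.63 lies between that line and cytosolic ribosomal protein genes at -0.77.

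The partners of these proteins that mitochondria make themselves are not transcribed by RNA polymerase II, and were read in input. The large ribosomal RNA, 21S_rRNA, had 37543 and 35816 scaled reads in TSA input, against 38481 and 39722 in untreated input (-0.09 ± 0.24, adjusted p = 0.833), and the small one, 15S_rRNA, had 54346 and 53311 in TSA input, against 61048 and 38947 in untreated input (0.14 ± 0.28). The gene var1, for a small-subunit protein encoded in mitochondria, had 1079 and 972 in TSA input, against 848 and 692 in untreated input (0.42 ± 0.14, adjusted p = 0.0535). None of these passed the test in input, and the input groups overlapped for 15S_rRNA only. The IP libraries held reads of these RNAs too. On the spike-in scale 21S_rRNA had 54753 and 43334 in TSA IP, against 71287 and 59164 in untreated IP (log2 change -0.41). The values of 15S_rRNA were 49102 and 36946 in TSA IP, against 60711 and 47806 in untreated IP (-0.34). Both changes were near the -0.42 of all features, and neither passed the test. How far RNA not made by RNA polymerase II enters the IP values was not tested.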

How the data were processed

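NET-seq libraries from IP and input RNA were used as deposited, in 2 tables of 19343 features each. Per the methods, the authors trimmed adapters with cutadapt and kept uniquely mapping reads (Bowtie); the ASM294v2 genome is named for the alignments. The deposited values are a signal, reads per feature times 1 factor per library, set by the authors from S. cerevisiae ribosomal protein genes (4 IP libraries) or from total reads (8 libraries). A single deposited column per table has the factor 1 and holds raw counts. Whole reads were recovered for 100% of values within 0.001 of a read. The 12 columns of sums over replicates were not used.

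After 10204 coding-part and 28 repeated pseudogene entries were set aside, limma 3.58.1 (eBayes with trend) was fitted over the remaining features to log2(value + pseudocount), so fold changes of low genes are understated. The pseudocount was the 10th percentile of non-zero values: 6, 6.58 and 1.18 for the spike-in scale, the total-read scale and input. Features with a mean above it were tested, with Benjamini-Hochberg adjustment; calls needed an adjusted p under 0.05 and 2-fold. edgeR 4.0.16 and DESeq2 1.42.0 on recovered reads were alternatives. The limma and edgeR fits of IP libraries were tested on simulated counts. DESeq2 and the input, IP over input and coding-part fits were not. Biological replicates are 2 per group, so the precision is limited by their number. IP and input of the same title prefix were taken as 1 culture.

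Named genes were those called, the 5 highest and 5 lowest nascent changes (mean of 50 reads or more), the 3 highest and lowest for input (20 reads or more) and for IP over input, the 4 highest and lowest densities, and the ends of each list; cytosolic counterparts, opposite transcripts and mitochondrially encoded partners were added after their values were seen. Members and lists were chosen with earlier results of these data known, and the list of 22 other annotated genes after the annotation was read. From the lists, 3 synthetase names annotated with another function were dropped. Sequences are from RefSeq (ASM294v3), matched by identifier for all 54 genes.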

Additional observations from a re-analysis of the deposited data

How the results depend on the processing

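On the spike-in scale, 2 genes of the group were called lower. That count was 0 with median-ratio scaling, 1 with 4 times the pseudocount and 6 with no fold minimum, and it ran between 0 and 7 when single libraries were left out; it was 2 with 0.25 times the pseudocount, no filter, edgeR, DESeq2, summed coding parts, and without rsm1 or the genes that overlap on the same strand. None was called higher under any of these. The median log2 change of -0.48 was -0.050 with median-ratio scaling, which sets the median of all features to 0.00. On the total-read scale 1 gene was lower with no fold minimum, and the median ran from -0.19 to 0.14 without single libraries. In input, 1 gene was lower and 1 higher with no fold minimum, 0 to 1 were lower without single libraries, and the median ran from -0.12 to -0.021. The median change of IP over input, 0.01, ran from -0.064 to 0.19 without single cultures. Replicate numbers were not taken to pair TSA with untreated cultures, since the correlations of same-numbered deviations were -0.205, -0.242 and 0.0181 for the spike-in scale, the total-read scale and input. With the replicate number as a block, 0 genes of the group and 167 of all features were called lower on the spike-in scale (508 without it), and no other call of the group changed. The crossed pairing, added after the data were seen, called 2 genes of the group lower and 508 of all features. Counts over all features moved more: 508 lower and 169 higher on the spike-in scale, but 58 and 316 with median-ratio scaling, 257 and 60 with 4 times the pseudocount, and 3 to 1369 lower and as few as 33 higher without single libraries; DESeq2 called 93 higher. On the total-read scale 68 lower and 359 higher were 20 and 141 with 4 times the pseudocount, 111 lower with edgeR and 45 with DESeq2. In input 113 lower and 328 higher were 62 and 210 with 4 times the pseudocount and 38 and 109 with DESeq2. For IP over input, 0 lower were 3 with another variance trend and 20 with edgeR, both added after the data were seen. Input depth (3 to 128 reads per gene and library) limits what the input and IP over input comparisons can show.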
